A study of Mus musculus with 24 samples.

Results

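The day 0 to day 10 change of gene expression in cultured osteoblasts was compared between a mouse line named HBM, for high bone mass, and wild type (WT). For each culture batch the log2 change in HBM was taken and the log2 change in WT was subtracted, which gave 3 differences of changes per gene, 1 each for batches 18, 19 and 21. A value above 0 means that the gene went up more, or down less, in HBM than in WT. The comparison used 12 of the 24 libraries of the series: WT at day 0, WT at day 10, HBM at day 0 and HBM at day 10, with 3 libraries each. It covered the 15911 genes that passed a filter on low counts.

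Osteoblasts were grown from the calvariae (skull bones) of newborn mice, pooled within each culture, and their poly(A) RNA was sequenced. The labels describe the 3 cultures of a genotype as independent pools, so the spread given here is between pools and not between single mice. Day 0 precedes differentiation and day 10 lies within it, and no other treatment is named. The labels name no allele for HBM. General knowledge of the model, rather than any label, places the change in Col1a1 at the site where the C-propeptide of procollagen is cut off, the subject named in the title of the series. Days carrying the same batch number and genotype were read as samplings of 1 culture, which no label spells out.

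Osteoblasts form bone in steps. The transcription factors Runx2 and then Sp7 commit a precursor, which lays down collagen I and makes alkaline phosphatase, and a mature cell adds bone sialoprotein, osteocalcin and regulators of mineral before it becomes an osteocyte. Procollagen I is hydroxylated and folded in the endoplasmic reticulum, and after secretion its propeptides are removed by proteases such as BMP1, helped by the enhancer PCOLCE.

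Several features of the libraries bear on every value that follows. The day 0 libraries of batch 19 lay apart from the others in both genotypes, with the summed WT cartilage markers at 17900 CPM (counts scaled to the same library total with edgeR's factors) against 1470 and 4670 in the other WT day 0 libraries and 7540 on day 10 of the same culture. In HBM they were at 9360 CPM, against 970 and 2020 in the other day 0 libraries and 4610 on day 10. The Y-linked Ddx3y was at 22.5 CPM on day 0 and 63.6 on day 10 in the WT culture of batch 19. The leading genes are therefore also given without batch 19. Batch 21 held lower levels of bone genes on day 10 and more macrophage marker RNA than the others, and its Xist (the transcript of the inactive X chromosome) was at 0 to 0.024 CPM. In batch 19 Xist was at 18.3 and 42.3 CPM in WT and at 183 and 218 CPM in HBM on days 0 and 10. The parts of these features in the results were not tested. Column totals ran from 30261649 to 43013049 counts.

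Across all genes no difference of changes passed. edgeR's quasi-likelihood test, with the culture and the batch on each day as blocks, called 0 genes higher (0%) and 0 lower (0%) at a Benjamini-Hochberg adjusted p of 0.05, and the smallest adjusted p was 0.358. At an unadjusted p under 0.05 it held 1328 genes (8.35%), 680 of them higher in HBM (4.27%) and 648 lower (4.07%). The fit had 2 residual degrees of freedom. limma on the 3 differences also called 0 (1317 at an unadjusted p under 0.05), whereas DESeq2 with the same design called 36 higher and 15 lower. Fits on pairs of batches, with 1 residual degree of freedom, called 23 genes without batch 18, 15 without batch 19 and 240 without batch 21. Of these, Alpl, Tnn, Hmcn1 and the zinc finger gene Zfhx4 were called in all 3 such fits, which share batches with each other. These genes were singled out after their values were seen, although Alpl was also a fixed gene. DESeq2 on 3 batches did not call Alpl (adjusted p = 0.251). The statements on single genes that follow therefore give values that did not pass the edgeR test on 3 batches, and each gene is described by its values. Adjusted p values given without a batch come from these fits on pairs of batches. Such fits reuse libraries on which the leading genes were chosen, so a value under 0.05 there is no separate test.

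The 3 batches differed in how far genes spread. The SD of the difference over genes was 0.53 in batch 18, 0.84 in batch 19 and 0.50 in batch 21 (log2), with medians of 0.01, 0.07 and 0.01. A difference past 1 in either direction was found for 6.9%, 20.5% and 6.28% of genes. The width of batch 19 lay on day 0: there the HBM minus WT gap had an SD of 0.73 on day 0 and 0.49 on day 10, against 0.35 and 0.44 in batch 18 and 0.43 and 0.42 in batch 21. Over the 15911 genes, which share libraries and are no replicates of each other, Pearson's r was 0.28 between batches 18 and 19, 0.139 between 19 and 21 and 0.0719 between 18 and 21. The fitted difference was above 0 for 54.2% of genes and below 0 for 45.8%. Differences shared a sign in 3 of 3 batches for 5917 genes (37.2%), 3121 of them above 0 (19.6%) and 2796 below 0 (17.6%). Past 1 in every batch were 52 genes above (0.327%) and 24 below (0.151%). Among those 52 genes, 42 had a mean change above 0 in both genotypes, that is, a larger upward change in HBM. The share of all genes that went up in both genotypes was not computed. Both sets held genes with a mean under 1 CPM, such as Ehf (0.172) among those above and Dcc (0.149) among those below.

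**Figure D1:**
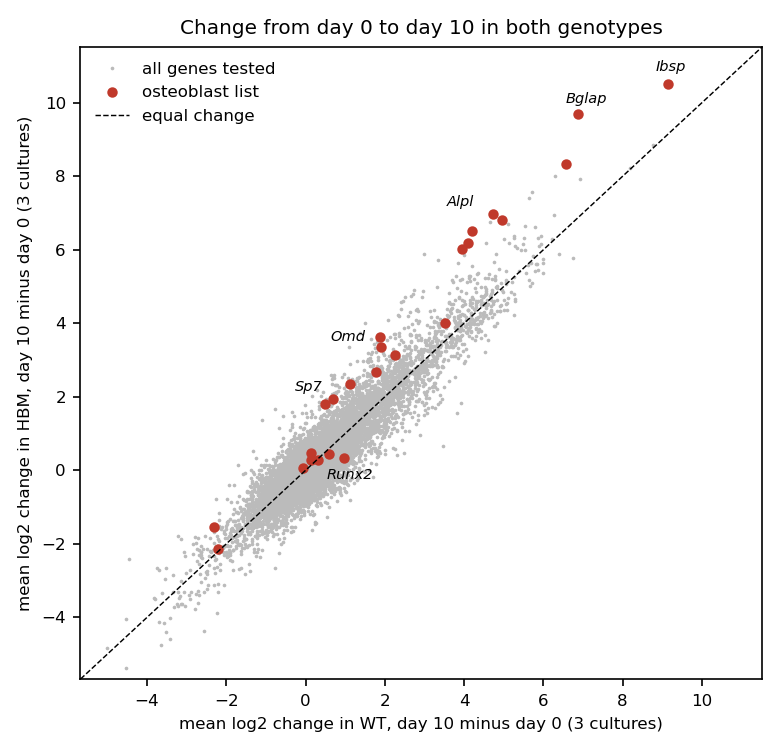
Mean log2 change from day 0 to day 10 in WT (x axis) and in HBM (y axis), each over 3 cultures. Grey points are the 15911 genes tested, red points the 24 osteoblast genes, and the dashed line marks equal change. Most genes lie along the line, and 21 of the 24 osteoblast genes have a fitted difference above 0.

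Sp7, or osterix, which osteoblast formation requires (ENSMUSG00000060284, mm10 chr15:102356606-102367182, minus strand), is described first among the transcription factors. In WT it went from 23.4 to 53.3 CPM in batch 18, from 29.8 to 105 in batch 19 and from 54.0 to 28.6 in batch 21. In HBM it went from 23.0 to 150, from 28.9 to 240 and from 48.7 to 50.9 CPM. The day 0 levels of the genotypes lay close in each batch and HBM was the higher on day 10 in each, although the batch 21 HBM level lay under the WT level of both other batches. The difference of changes was 1.51, 1.25 and 0.98 in batches 18, 19 and 21, with a fitted value of 1.25 ± 0.17 (SE, 3 batches, edgeR adjusted p = 0.358). Without batch 19 it was also 1.25 (adjusted p = 0.0365), while without batch 18 it was 1.08 and did not pass (adjusted p = 0.139).

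Runx2, the factor upstream of Sp7, showed no such pattern. It was at 58.1, 56.0 and 85.1 CPM in WT and 70.2, 70.2 and 83.7 in HBM on day 0, and at 75.7, 101 and 69.8 in WT and 102, 108 and 66.3 in HBM on day 10. Its differences were 0.16, -0.23 and -0.05 and its fitted value was -0.04 ± 0.16, or 0.06 without batch 19. The homeobox gene Dlx3 stood at 4.76, 17.5 and 0.777 CPM in WT and at 29.0, 47.3 and 2.09 in HBM on day 10, from levels under 1 CPM on day 0, with a fitted difference of 2.16 ± 0.40 (edgeR adjusted p = 0.397, and 1.99 with adjusted p = 0.24 without batch 19). Tcf7, which encodes a nuclear effector of Wnt signals, had differences of 2.03, 1.31 and 0.97 and a fitted 1.48 ± 0.26 (edgeR adjusted p = 0.358, and 1.61 with adjusted p = 0.12 without batch 19). The related homeobox genes Dlx5 and Dlx6 were at 0.15 and 0.12.

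The proteins of bone matrix are described next. Bglap encodes osteocalcin, the vitamin K-dependent protein of bone matrix (ENSMUSG00000074483, minus strand). On day 0 it stood between 0.0523 and 0.223 CPM in all 6 libraries. On day 10 WT was at 34.8, 138 and 1.84 CPM in batches 18, 19 and 21 and HBM at 332, 339 and 16.2. HBM was thus the higher in every batch on day 10, while the levels of the 3 batches overlapped between genotypes. The differences were 3.35, 1.70 and 3.43 and the fitted value 3.19 ± 0.51, a fold of 9.14 (edgeR adjusted p = 0.358, and 3.50 with adjusted p = 0.0647 without batch 19). These day 0 levels rest on few counts. Reads of Bglap and its near-identical neighbour Bglap2 may have been split by the counting. Bglap2 had differences of 2.43, 0.15 and 2.73.

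Dmp1 encodes an acidic phosphoprotein of late osteoblasts and osteocytes (ENSMUSG00000029307, plus strand). It went from 0.374, 1.39 and 1.09 to 11.2, 54.5 and 3.34 CPM in WT and from 0.391, 0.732 and 0.634 to 52.6, 125 and 4.57 CPM in HBM. The HBM level was the higher on day 10 in every batch, by the least in batch 21. The differences were 2.17, 2.07 and 1.18 (fitted 1.84 ± 0.29, edgeR adjusted p = 0.358, and 1.63 with adjusted p = 0.18 without batch 19). Ibsp, bone sialoprotein, stood at 0.140, 0.260 and 0.279 CPM in WT and 0.503, 0.366 and 0.401 in HBM on day 0, and at 215, 851 and 20.2 in WT and 1480, 2370 and 96.0 in HBM on day 10. HBM was the higher on both days in each batch, and its differences were 1.26, 1.06 and 1.79 (fitted 1.23 ± 0.37, adjusted p = 0.569, and 1.37 with adjusted p = 0.349 without batch 19). Sost, the Wnt inhibitor of osteocytes, had no count on day 0 and was at 0.661, 10.7 and 0 CPM in WT and 7.75, 15.0 and 0.024 CPM in HBM on day 10. With both day 0 groups at 0, no difference of changes is given for it.

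The promoters of Bglap and Dmp1 are shown because these genes had differences above 1 in every batch and hold the letters TGTGGT, or ACCACA on the other strand, the core that Runx factors bind, within the window searched. The window was 250 bases before to 50 bases after each RefSeq start (GRCm38.p6), both strands. The 250 bases before the start are printed 5′ to 3′ on the strand of the gene, and capitals mark the match. That of Bglap is chr3:88384467-88384716, minus strand, with the match starting at -132, and that of Dmp1 is chr5:104202367-104202616, plus strand, at -164.
Bglap: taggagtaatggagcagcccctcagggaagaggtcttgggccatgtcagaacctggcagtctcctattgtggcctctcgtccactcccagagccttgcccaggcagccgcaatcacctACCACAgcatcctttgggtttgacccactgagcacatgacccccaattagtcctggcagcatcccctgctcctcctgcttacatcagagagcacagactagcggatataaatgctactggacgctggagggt
Dmp1: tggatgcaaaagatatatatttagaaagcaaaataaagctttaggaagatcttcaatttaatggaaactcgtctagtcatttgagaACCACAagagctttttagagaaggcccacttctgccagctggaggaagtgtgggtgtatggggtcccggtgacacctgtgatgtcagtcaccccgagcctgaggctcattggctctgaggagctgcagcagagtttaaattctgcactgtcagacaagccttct

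The letters are common. Of 32851 windows of this length over all promoters 5506 held them (16.8%), against 4 of 20 windows of the osteoblast genes that had one, those of Bglap, Mepe, Runx2 and Spp1. Of the genes with the smallest p among those higher in HBM, 8 had a window in the table, and those of Bglap and Dmp1 held the letters. A match describes these letters only, and binding was not tested.

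Other proteins of the bone matrix and surface follow. Osteomodulin, Omd, is a small leucine-rich proteoglycan that binds mineral and collagen. It stood at 5.13, 22.5 and 20.3 CPM in WT and 4.11, 14.1 and 4.67 in HBM on day 0, then at 53.7, 63.6 and 36.4 in WT and 97.3, 96.0 and 32.1 in HBM on day 10. HBM was lower on day 0 in every batch and higher on day 10 in batches 18 and 19 only, so part of its difference of 1.46 ± 0.20 lay on day 0 (batches 1.17, 1.27 and 1.92, edgeR adjusted p = 0.358, and 1.57 with adjusted p = 0.0647 without batch 19). Tenascin N, Tnn, a matrix glycoprotein of bone and periosteum, went from 64.6, 94.3 and 83.0 to 77.1, 104 and 52.9 CPM in WT and from 50.6, 181 and 49.0 to 221, 367 and 143 CPM in HBM. On day 10 HBM was the higher in each batch. The differences of Tnn were 1.87, 0.89 and 2.20, with a fitted value of 1.65 ± 0.25 (edgeR adjusted p = 0.358). Without batch 19, which held the smallest of them, it was 2.03 (edgeR adjusted p = 4.76e-04, no separate test). Ifitm5, a membrane protein found in osteoblasts, was at 5.92, 18.5 and 0.803 CPM in WT and 39.8, 51.9 and 1.75 CPM in HBM on day 10, with a difference of 2.45 ± 0.44 (2.64 with edgeR adjusted p = 0.165 without batch 19). Spp1, osteopontin, was at 0.76, with 0.03 in batch 21.

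Genes that supply or restrain mineral followed. Alpl, alkaline phosphatase, which frees phosphate by splitting the mineral inhibitor pyrophosphate, went from 1.45, 3.17 and 28.3 to 142, 236 and 75.6 CPM in WT. In HBM it went from 1.51, 0.445 and 12.1 to 364, 520 and 97.7 CPM. HBM was higher on day 10 in every batch and lower on day 0 in batches 19 and 21. The differences were 1.30, 3.84 and 1.60 (fitted 2.11 ± 0.42, edgeR adjusted p = 0.433). Without batch 19 the value was 1.52 (edgeR adjusted p = 0.00932), while DESeq2 on 3 batches gave an adjusted p of 0.251.

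Smpd3, a neutral sphingomyelinase that skeletal mineralization needs, stood between 0.754 and 1.33 CPM in all day 0 libraries. On day 10 it was at 42.1, 149 and 6.53 CPM in WT and 228, 368 and 15.5 CPM in HBM, the higher in every batch. The difference was 1.84 ± 0.30 (2.69 in batch 18 and 1.31 in batch 21, edgeR adjusted p = 0.358) and 2.07 without batch 19 (adjusted p = 0.124). Phosphatase Phospho1 was at 1.32 and the calcification inhibitor Mgp at 0.77. The phosphate regulator Phex had differences of 2.31, 0.73 and 0.76 and a fitted 1.38 ± 0.36, which was 0.73 without batch 18 (edgeR adjusted p = 0.71). Enpp1 and Ank, which supply pyrophosphate, were at -0.08 and -0.28.

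**Figure D2:**
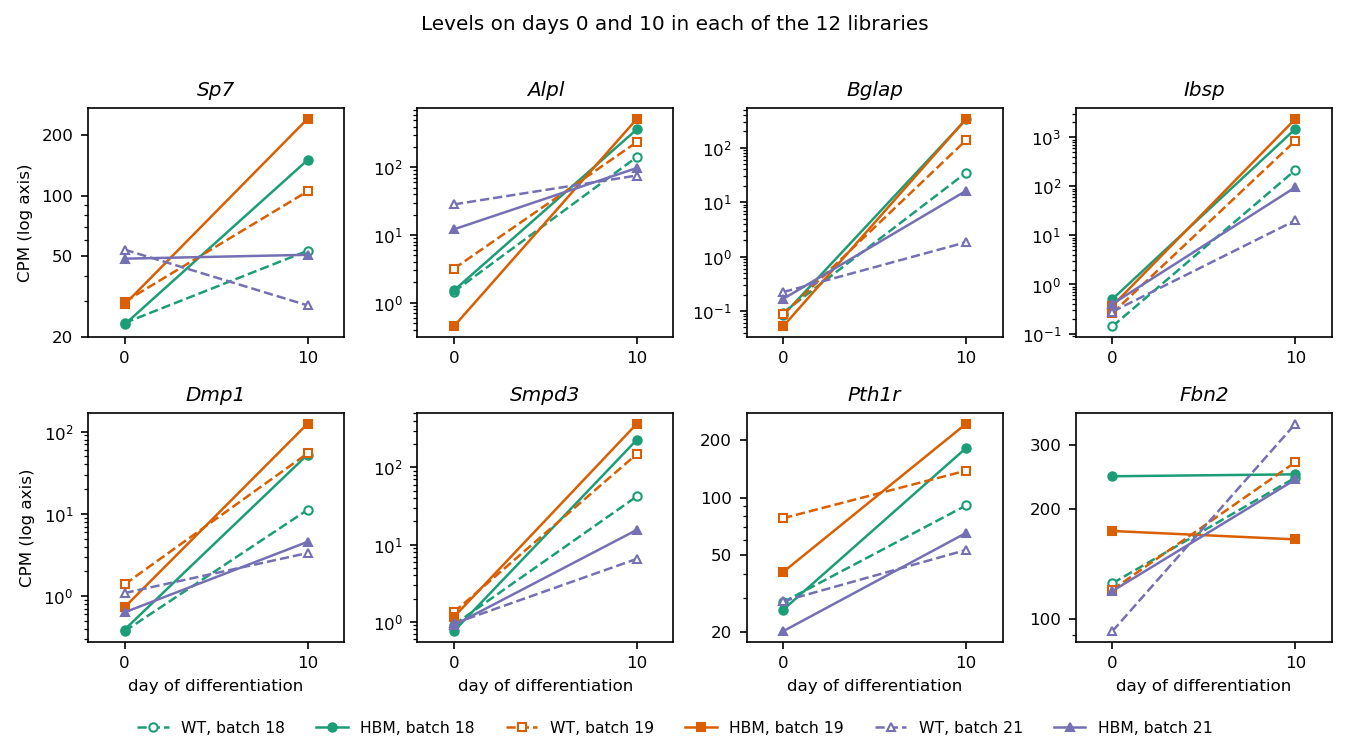
CPM on a log axis on days 0 and 10 for 8 genes in each of the 12 libraries. Open symbols with dashed lines are WT, filled symbols with solid lines are HBM, and colour and shape give the batch. The solid line ends above the dashed line of its batch on day 10 for the bone genes, and for Fbn2 in batches 19 and 21 it ends under it.

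Receptors and other genes completed the 12 genes with the smallest p among higher values, which were chosen on this same contrast. Pth1r, the parathyroid hormone receptor, was at 28.6, 78.1 and 28.9 CPM in WT and 26.1, 41.0 and 20.2 in HBM on day 0, and at 91.0, 138 and 53.4 in WT and 181, 242 and 65.5 in HBM on day 10 (difference 1.23 ± 0.21, and 0.97 with edgeR adjusted p = 0.0356 without batch 19). HBM was lower on day 0 and higher on day 10 in each batch. The adhesion receptor Adgrd1 was at 9.80, 22.0 and 2.93 CPM in WT and 39.7, 60.8 and 4.35 in HBM on day 10 (1.65 ± 0.27, and 1.70 with adjusted p = 0.0957 without batch 19). Cgref1, a secreted protein with EF-hand motifs, was at 58.3, 109 and 20.2 CPM in WT and 211, 297 and 44.7 in HBM on day 10 (1.74 ± 0.26, and 1.49 with adjusted p = 0.357 without batch 19). Within each batch the HBM level was thus the higher for both genes.

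Wif1, a secreted Wnt inhibitor, went from 1.03, 3.95 and 11.1 to 1.59, 9.02 and 0.621 CPM in WT and from 1.54, 0.967 and 4.11 to 12.1, 23.6 and 0.697 CPM in HBM. In batch 21 its level went down in both genotypes, and less so in HBM. The differences were 2.33, 3.36 and 1.57 (fitted 2.56 ± 0.37, and 2.02 with edgeR adjusted p = 0.0957 without batch 19). Cdo1, cysteine dioxygenase, which breaks down cysteine, had a difference of 1.41 ± 0.21, and 1.27 without batch 19 (adjusted p = 0.0891). Mlip, which encodes a lamin-binding protein, was at 2.20 ± 0.36, and at 1.91 without batch 19 (adjusted p = 0.165). Over the 12 genes the fitted values ran from 1.23 to 3.19, from 0.97 to 3.50 without batch 19 and from 0.81 to 3.43 within batch 21. DESeq2, run on the same libraries and design, called all 12 of them. This is no separate test, since the genes were chosen on this contrast.

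Read as a list, 24 osteoblast genes had a median difference of 1.24, beside 0.04 over all genes tested. The medians were 1.27, 1.15 and 0.83 in batches 18, 19 and 21. The list was chosen with earlier results of these data known, and it holds genes described above, such as Sp7, Omd, Cgref1 and Bglap. Its values are therefore a description and no separate test. Of these 24 genes, 0 passed the adjusted threshold in either direction. Differences were above 0 in 3 of 3 batches for 15 of 24 members, beside 19.6% of all genes, and past 1 in every batch for 8, beside 0.327%. An unadjusted p under 0.05 was found for 15 with a higher value (4.27% of all genes) and for 1 with a lower value (4.07% of all genes), Cdh11, the osteoblast cadherin, at -0.64. Outside the genes with large values lay Msx2 at 0.07 and Kazald1 at 0.47. The 10 osteocyte genes tested had a median of 0.55, with 6 above 0 in every batch, and a median of 0.36 without batch 18. The 13 mineralization regulators had a median of 0.77, with 7 above 0 in every batch, and a median of 0.18 without batch 18. DESeq2 called 10 of the 24 osteoblast genes, all higher, beside 36 higher and 15 lower over the 15911 genes tested.

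**Figure D3:**
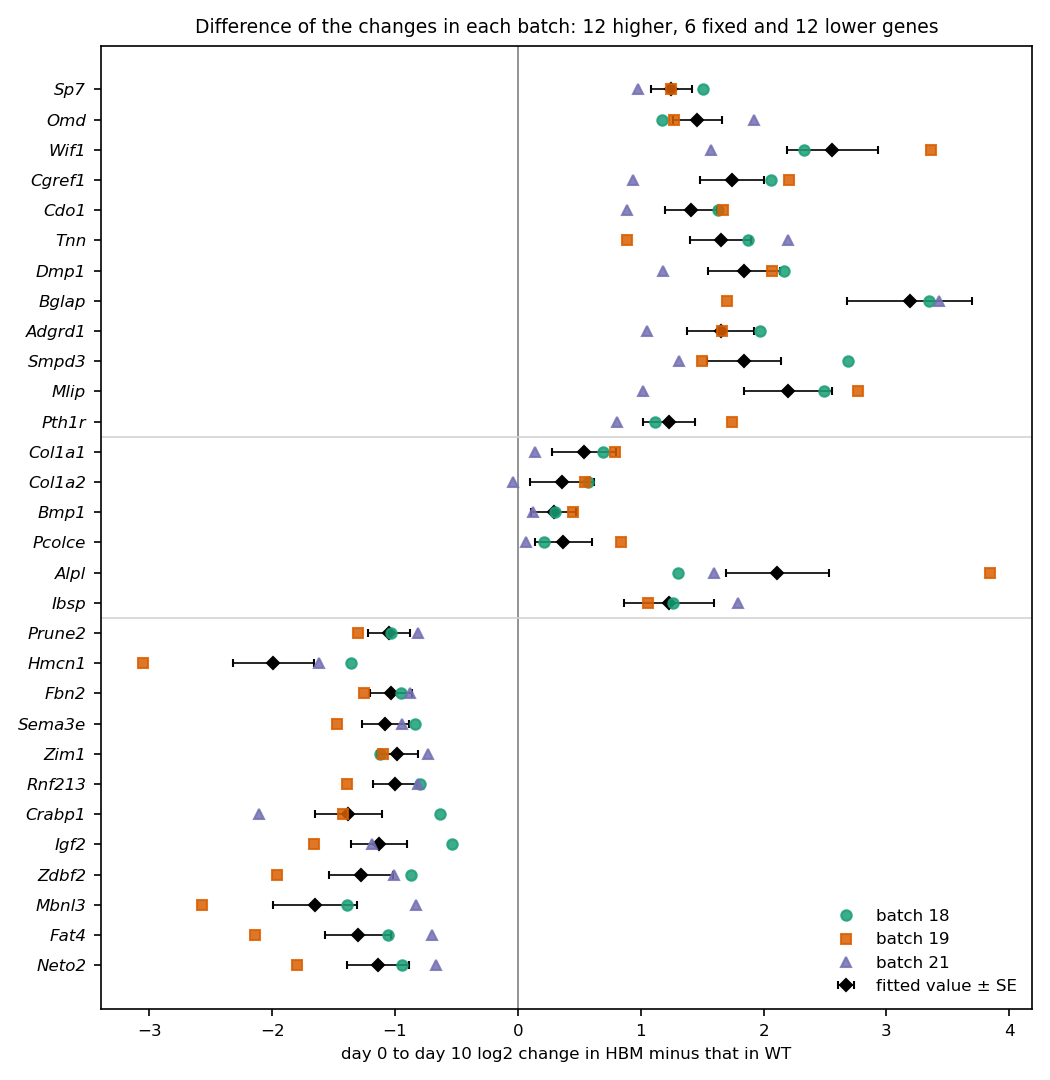
Log2 change in HBM minus that in WT for 12 genes with higher values, 6 genes of collagen I and bone, and 12 genes with lower values. Coloured symbols are the 3 batches and black diamonds with bars the fitted value ± SE. The upper and lower groups lie on 1 side of 0 in every batch by the way they were chosen, while Col1a1, Col1a2, Bmp1 and Pcolce lie near 0 in batch 21.

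Collagen I itself differed little beside these genes. Col1a1, the alpha1 chain, went from 23000, 33500 and 18100 to 45200, 50300 and 29900 CPM in WT and from 22700, 34900 and 24300 to 72200, 90600 and 44400 CPM in HBM. HBM was higher on day 10 in each batch, while in batch 21 it was also higher on day 0. The differences were 0.69, 0.79 and 0.14, with a fitted 0.54 ± 0.26 (edgeR adjusted p = 0.569, 0.42 without batch 19). Col1a2, the alpha2 chain, was at 0.36 ± 0.26, with -0.04 in batch 21. Bmp1, the C-propeptide protease, was at 0.29 ± 0.18 (0.30, 0.45 and 0.12) and its enhancer Pcolce at 0.37 ± 0.23 (0.21, 0.84 and 0.07). Without batch 19 Pcolce was at 0.14.

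Of the 13 genes of collagen I processing tested, 0 passed, 6 were above 0 (19.6% of all genes) and 2 below 0 (17.6% of all genes) in every batch, and the median was 0.29, or 0.19 without batch 19. The second enhancer gene Pcolce2 stood at 4.25, 7.11 and 2.80 CPM in WT and 11.5, 14.0 and 5.21 in HBM on day 10, all HBM batches being the higher, with differences of 1.65, 0.72 and 0.59 (edgeR adjusted p = 0.569). Tll1, a BMP1-like protease, went the other way, with 119, 202 and 103 CPM in WT and 73.8, 101 and 76.5 in HBM on day 10 and differences of -0.72, -2.38 and -0.47 (-1.19 ± 0.34, and -0.60 without batch 19).

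Genes that hydroxylate and fold procollagen had a median of 0.39 over 25 members, with 15 above 0 in every batch (19.6% of all genes) and 0 past the threshold. The batch medians were 0.38, 0.56 and 0.05, so batch 21 lay close to the median of all genes. P4ha1, a catalytic subunit of prolyl 4-hydroxylase, stood at 155, 276 and 159 CPM in WT and 471, 1140 and 195 in HBM on day 10, with differences of 1.61, 2.13 and 0.13 (1.29 ± 0.35, and 0.87 with edgeR adjusted p = 0.768 without batch 19). P4ha2, its paralog, stood at 79.0, 107 and 78.6 CPM in WT and 167, 330 and 79.5 in HBM (1.30 ± 0.32, and 0.82 with adjusted p = 0.515 without batch 19). In batch 21 the genotypes were level on day 10 for P4ha2. The prolyl 3-hydroxylase P3h2 was at 0.92 ± 0.29 and the collagen chaperone Serpinh1 at 0.50.

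Among 18 other fibrillar and fibril-associated collagens, with a median of 0.12 (0.04 without batch 19) and 0 past the threshold, 3 are given. Col24a1, a fibrillar collagen of bone, was at 35.6, 70.9 and 10.4 CPM in WT and 98.2, 150 and 18.1 in HBM on day 10 (1.23 ± 0.23, and 1.45 with edgeR adjusted p = 0.113 without batch 19). Col22a1, a fibril-associated collagen, was at 13.4, 72.8 and 2.74 CPM in WT and 87.5, 164 and 3.87 in HBM (2.09 ± 0.42, and 1.84 with adjusted p = 0.31 without batch 19). Col11a2 was at 2.20 ± 0.47, and at 1.45 without batch 19 (adjusted p = 0.773), and HBM was under WT on day 10 in batch 21, at 100 against 219 CPM. Collagens III and V were near 0, with Col3a1 at 0.19, Col5a1 at 0.10 and Col5a2 at 0.13. The 5 lysyl oxidases, which crosslink collagen, had a median of 0.12, and the 13 small leucine-rich proteoglycans of 0.02.

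Genes with lower values were of other kinds. Hmcn1, hemicentin 1 of the extracellular matrix (mm10 chr1:150562524-150993435, minus strand), went from 4.70, 1.93 and 6.98 to 26.6, 35.7 and 12.4 CPM in WT and from 8.07, 5.39 and 6.14 to 17.6, 11.8 and 3.51 CPM in HBM. On day 10 HBM was the lower in each batch. The differences were -1.36, -3.05 and -1.62 (fitted -1.99 ± 0.33, edgeR adjusted p = 0.358, and -1.49 without batch 19, adjusted p = 0.0365). Fbn2, fibrillin 2, a microfibril protein of developing tissue, went from 125, 120 and 92.3 to 244, 269 and 343 CPM in WT and from 246, 174 and 119 to 249, 165 and 241 CPM in HBM. Its level began higher in HBM in each batch and ended under or near WT (-1.03 ± 0.17, and -0.91 with edgeR adjusted p = 0.0356 without batch 19).

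Igf2, insulin-like growth factor 2, was at 30.8, 18.8 and 57.0 CPM in WT and 64.0, 40.1 and 79.8 in HBM on day 0, and at 26.8, 59.3 and 16.6 in WT and 38.4, 40.0 and 10.2 in HBM on day 10. HBM was the higher of each pair on day 0, and on day 10 in batch 18 alone (-1.13 ± 0.23, edgeR adjusted p = 0.433, and -0.85 with adjusted p = 0.164 without batch 19). Neto2, an auxiliary subunit of kainate receptors, had a mean gap of 0.02 on day 0 and was lower in HBM on day 10, at 31.3, 45.6 and 30.3 CPM in WT and 20.2, 15.9 and 13.1 in HBM (-1.14 ± 0.25). The splicing regulator Mbnl3 was at -1.65 ± 0.34, the giant cadherin Fat4 at -1.30 ± 0.27 and the retinoic acid-binding Crabp1 at -1.38 ± 0.27. The imprinted genes Zdbf2 and Zim1 were at -1.28 ± 0.26 and -0.98 ± 0.17. Prune2 and the guidance factor Sema3e were at -1.05 ± 0.17 and -1.08 ± 0.19, and the ubiquitin ligase Rnf213 was the remaining gene. The 12 lower genes, chosen on this contrast, ran from -1.99 to -0.98, and from -1.49 to -0.80 without batch 19. DESeq2 called 11 of the 12, on the same libraries, which is again no separate test.

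Signalling lists held single members on both sides. In the Wnt pathway 31 genes had a median of 0.12 (-0.05 without batch 18), with 9 above 0 (19.6% of all genes) and 5 below 0 (17.6% of all genes) in every batch. Beside Wif1 and Tcf7, the ligand Wnt7b was at 1.51 ± 0.42. Its day 10 levels were 1.88, 1.78 and 1.14 CPM in WT and 5.13, 3.09 and 3.20 in HBM, higher in each batch. The ligand Wnt11 was at -1.03 ± 0.32, with 2.56, 3.74 and 4.82 CPM in WT and 1.39, 1.15 and 1.90 in HBM, lower in each batch. In the BMP and TGF-beta pathway 32 genes had a median of 0.07. There Bmp3, an antagonist among BMP ligands, had day 10 levels of 12.6, 29.5 and 2.98 CPM in WT and 49.2, 77.3 and 8.36 in HBM (1.78 ± 0.42), and the pseudoreceptor Bambi was at 1.08 ± 0.27. In the IGF and FGF pathway 23 genes had a median of 0.06 (-0.14 without batch 21), with 5 above 0 in every batch, near the 19.6% of all genes, and 7 below 0, beside 17.6%. The binding protein gene Igfbp5 was at -1.45 ± 0.39 (-0.35, -2.63 and -1.38, and -0.86 without batch 19) and Igf2r at -0.62 ± 0.20. The receptor gene Fgfr3 was at 0.83 ± 0.19, with a mean HBM minus WT gap of -0.86 on day 0 and -0.04 on day 10. None of the genes in these lists passed in edgeR.

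Metabolic and stress lists sat slightly above all genes, and batch 19 had the highest median in the first 3. The 24 sterol synthesis genes had a median of 0.36, with 19 above 0 in every batch (19.6% of all genes) and batch medians of 0.19, 0.68 and 0.21. Their values were small, such as 0.53 ± 0.19 for the demethylase Cyp51 and 0.65 ± 0.22 for the isomerase Ebp. Glycolysis and hypoxia genes had a median of 0.42 over 22, but batch medians of 0.19, 1.04 and -0.03, and a median of 0.08 without batch 19. The 25 genes of ATF4 and stress response had 0.36, with 0.37, 0.68 and -0.17 by batch and 0.17 without batch 19, among them the phosphate hormone gene Stc2 at 1.26 ± 0.30 and the glutathione-degrading Chac1 at 1.29 ± 0.36. Chac1 was at 2.43, 4.71 and 3.83 CPM in WT and 11.3, 12.9 and 4.78 in HBM on day 10. The 30 cell cycle genes had a median of 0.21, with 12 above 0 in every batch, and 19 immediate early genes 0.43, with 9. Chaperones of the endoplasmic reticulum had 0.16 over 22 genes, with Xbp1 at 0.59 ± 0.20. In each of these lists 0 genes passed in edgeR.

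Secreted regulators outside bone matrix were mixed. Timp1, an inhibitor of metalloproteinases, went from 425, 923 and 393 to 349, 341 and 176 CPM in WT and from 375, 603 and 466 to 543, 639 and 321 CPM in HBM, with HBM higher on day 10 in each batch (0.99 ± 0.23). The 21 metalloproteinases and inhibitors had a median of -0.04 and the 22 chemokines and cytokines 0.16. Cxcl14 was at 0.79 ± 0.17, the cytokine Lif at 0.88 ± 0.24 and the stromal chemokine Cxcl12 at -0.53 ± 0.19. The interferon response had a median of -0.22 over 25 genes (0.03 without batch 18), with Oas1a at 1.04 ± 0.26 and Ifit3b at -0.72 ± 0.22. The mean HBM minus WT gap of Oas1a was -0.96 on day 0 and -0.08 on day 10, and that of Ifit3b was 0.39 and -0.34.

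**Figure D4:**
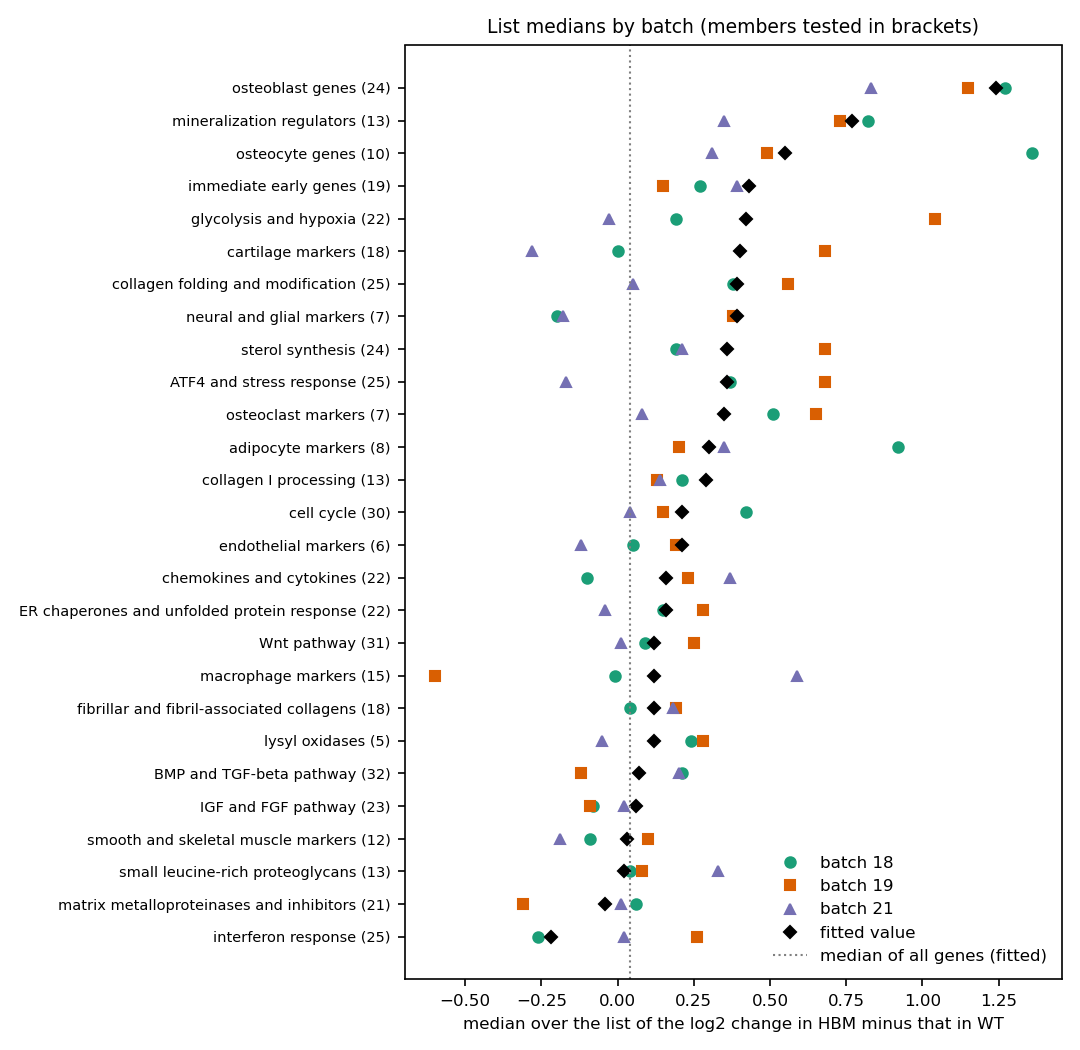
Median over each gene list of the log2 change in HBM minus that in WT, with the number of members tested in brackets. Coloured symbols are the 3 batches, black diamonds the fitted values and the dotted line the median of all genes (0.04). The osteoblast list lies to the right at 1.24 and in batches 18, 19 and 21 at 1.27, 1.15 and 0.83, while most lists of other kinds straddle the line or have 1 batch apart. The lists were chosen with earlier results of these data known.

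Markers of other cells moved beside these values. In bulk RNA fewer cells of a type and less RNA per cell cannot be told apart. Summed macrophage markers (15 genes) ranged on day 0 from 62.4 to 1520 CPM (WT) and from 47.5 to 1230 CPM (HBM), and on day 10 from 3150 to 10200 CPM (WT) and from 1850 to 13300 CPM (HBM), with batch 21 at the top of each range. Their median difference was 0.12, and by batch -0.01, -0.60 and 0.59. Of the 15 genes, 10 had a fitted difference above 0 (54.2% of all genes) and 5 below 0. Cd163 was the lowest of them at -1.58 ± 0.64, from day 0 levels of at most 0.209 CPM. Of 9 osteoclast markers 7 were tested, with a median of 0.35. The acid phosphatase Acp5, also made by other cells of the monocyte line, was at 1.06 ± 0.21, the proton pump subunit gene Atp6v0d2 at 1.96 ± 0.40 and the integrin gene Itgb3 at -0.59 ± 0.20. Acp5 was at 3.09, 32.8 and 1.95 CPM in WT and 1.40, 15.9 and 1.14 in HBM on day 0, the lower in HBM in each batch, and on day 10 at most 33.3 in WT and 33.5 in HBM. The markers Calcr and Dcstamp were under the filter.

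Cartilage markers (18 tested of 19) had a median of 0.40 and batch medians of 0.00, 0.68 and -0.28. Their sum was 970 to 9360 CPM in HBM and 1470 to 17900 in WT on day 0, and 2720 to 4610 in HBM and 2960 to 7540 in WT on day 10. Of the 18 genes, 12 had a fitted difference above 0 (54.2% of all genes) and 6 below 0. Col2a1, the cartilage collagen, was at -0.16 ± 0.22 and the matrix protein gene Comp at 0.87 ± 0.19 (edgeR adjusted p = 0.503). Comp was lower in HBM on both days in each batch, with a mean HBM minus WT gap of -1.70 on day 0 and -0.84 on day 10. The median gap over the 18 genes was -1.15 on day 0 and -0.94 on day 10, below 0 on both days. Adipocyte markers (8 tested of 12) had a median of 0.30, and their sum was 23.7 to 50.7 CPM on day 0 and 242 to 631 on day 10 over both genotypes. Fabp4, a lipid carrier of fat cells, was at 2.04 ± 0.45, with 23.1, 2.77 and 0.596 CPM in WT and 58.7, 2.56 and 0.865 in HBM on day 10. Muscle and endothelial lists had medians of 0.03 and 0.21. The neural list had 0.39, but between -0.13 and 0.08 whichever batch was left out. Blood markers summed to at most 2.44 CPM and keratinocyte markers to at most 18.4 CPM in any of the 12 libraries. The part of these cells in the differences of bone genes was not tested.

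The gaps on the single days are given as a description, since the genes were chosen on their difference. For the 12 higher genes the mean HBM minus WT gap on day 0 ran from -1.03 to -0.06 (median -0.29) and on day 10 from 0.42 to 2.55 (median 1.38), and on day 10 it was above 0 in 3 of 3 batches for 11 genes. Sp7 had gaps of -0.07 ± 0.07 (SD, 3 batches) on day 0 and 1.17 ± 0.33 on day 10, and Bglap of -0.28 ± 0.16 and 2.55 ± 1.09. For Alpl the gap was -1.29 ± 1.38 on day 0 and 0.96 ± 0.52 on day 10, so the day 0 gap was the larger in size. For the 12 lower genes the gap was 0.02 to 0.88 on day 0 (median 0.54) and -1.33 to -0.25 on day 10 (median -0.70). The choice of genes favours gaps of opposite sign on these days, without fixing the sign of either.

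Days 15 and 21 supply libraries that the choice did not use, though from the same cultures. The share of all genes with a gap of either sign on these days was not computed, so the counts are a description only. On day 15 the mean gap was above 0 for all 12 higher genes, from 0.26 to 1.75 (median 1.17), and on day 21 from 0.17 to 1.57 (median 0.71). Among these 12 genes Tnn had the highest mean gap on both days, 1.75 ± 0.83 and 1.57 ± 1.04 (SD, 3 batches). By day 21 batch 19 had crossed 0 for Dmp1 (-0.44), Smpd3 (-0.34), Wif1 (-0.33), Cdo1 (-0.32), Omd (-0.31) and Cgref1 (-0.09), while batches 18 and 21 were above 0 for each of these. For the 12 lower genes the mean gap was below 0 in 10 on day 15 (median -0.54), all but Fbn2 at 0.20 and Rnf213 at 0.04. On day 21 it was below 0 in 11 (median -0.75), all but Sema3e at 0.33. Hmcn1 was at -1.20 ± 0.30 and -1.69 ± 0.22 on these days and Neto2 at -1.17 ± 0.21 and -1.17 ± 0.11. Col1a1 had gaps of 0.16 ± 0.23, 0.70 ± 0.15, 0.96 ± 0.15 and 0.81 ± 0.26 on days 0, 10, 15 and 21.

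**Figure D5:**
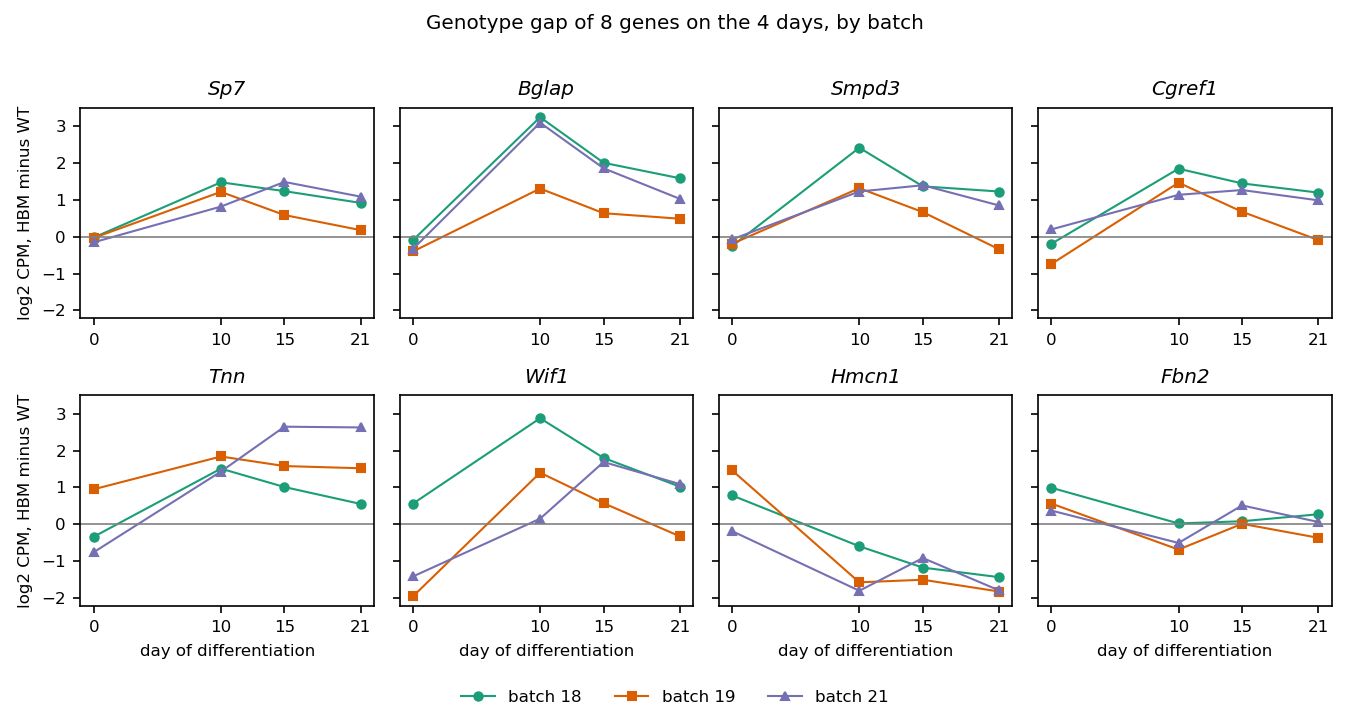
HBM minus WT gap in log2 CPM on days 0, 10, 15 and 21 for 8 genes, with 1 line per batch and the grey line at 0. Sp7, Bglap, Smpd3 and Cgref1 start near or under 0 and lie above it on day 10 in every batch, Tnn stays above it later, and Hmcn1 lies below it from day 10 on.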

How the data were processed

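The deposited table gives whole-number read counts per gene for 24 libraries, made by the authors with cutadapt 3.4, STAR 2.7.8a and featureCounts of Subread 2.0.1 on mm10, per the submitters' processing notes. Annotation release, strand setting and the handling of reads that match several genes were not given in the sources used here, so overlapping and antisense genes cannot be told apart. Of 54232 rows, 54164 matched GENCODE M21, which gave symbols and coordinates, and 68 (at most 0.00337% of the counts of a library) did not.

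edgeR 4.0.16 (R 4.3.3) was run on the 12 libraries of days 0 and 10: filterByExpr over the 4 groups (minimum count 10), TMM factors (0.924 to 1.05), and a robust quasi-likelihood test of the HBM by day 10 term with 6 culture and 3 batch-by-day terms. The script was tested on simulated data. Adjusted p is Benjamini-Hochberg over 15911 genes, with a threshold of 0.05. Log2 differences per batch use edgeR log2 CPM with a prior count of 2, and the SE belongs to the fit. Levels are TMM-scaled CPM and are compared within a gene only. Gaps of all 4 days in the later-day description use scaling over 24 libraries. Reads carry no molecular identifiers and are not independent molecules.

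The batch number pairs the samples by a batch tag in the labels. Deviations from group means correlated at 0.668 to 0.828 between WT and HBM libraries of the same number and at most 0.155 otherwise, and between days of the same culture at 0.246 to 0.454. The block was used in the main test because each batch gives 1 difference.

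Genes named were 9 fixed ones (Sost, Dmp1, Ibsp, Bglap, Alpl, Pcolce, Bmp1, Col1a2, Col1a1), then the 12 smallest p in each direction among genes of 1 sign in 3 batches, a mean of at least 1 CPM and a symbol other than a predicted or clone name, then up to 4 of smallest p per list. Further genes were named after their values were seen: other members of the 30 lists, Zfhx4, Peg3, Gal and Serpinb2. Genes, lists and design were chosen with earlier results of these data known. Alternatives were RLE size factors, other filters, other blocks, 24 libraries, DESeq2 1.42.0, limma 3.58.1, a fit that was not robust, other prior counts and each batch left out. Promoters are RefSeq windows of GRCm38.p6.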

Additional observations from a re-analysis of the deposited data

Results flagged for a closer look

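For P4ha2, a catalytic subunit of collagen prolyl 4-hydroxylase, the 3 WT cultures went down from day 0 to day 10 and the 3 HBM cultures went up. The log2 changes were -0.25, -0.39 and -0.17 in WT and 1.01, 1.86 and 0.19 in HBM for batches 18, 19 and 21. The fitted difference was 1.30 ± 0.32 and did not pass the interaction test (edgeR adjusted p = 0.564; DESeq2 0.0135).

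For Adamts5, a protease that cleaves the proteoglycan aggrecan, the signs were the reverse, though the changes in HBM were small. The changes were 0.53, 0.86 and 0.30 in WT and -0.15, -0.20 and -0.03 in HBM. The share of all genes with opposite signs in the genotypes in every batch was not computed. The fitted difference was -0.69 ± 0.19 (edgeR adjusted p = 0.569; DESeq2 0.263).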

How the results depend on the processing

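With only 3 batches and 2 residual degrees of freedom, the count of genes is the value that moved most. It was 0 in edgeR with RLE size factors, without a filter on low counts, at a mean of at least 5 CPM, without the robust option and in limma, with 0.0978 as the smallest adjusted p among these. In the fits that change the replicate block the count was also 0: with no replicate block (128 genes at an unadjusted p under 0.05), with the culture alone (191), with the batch within day alone (1184), and with 24 libraries under the same block (2882, smallest adjusted p 0.0809) or with no block (533). DESeq2 gave 51 (36 higher, 15 lower, with 1851 genes at an adjusted p of NA), and leaving out 1 batch gave 15 to 240. All 51 DESeq2 genes had 1 sign in 3 batches.

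The counts by list stand beside 51 DESeq2 calls over 15911 genes, and 15 to 240 calls over all genes with 1 batch left out. By list, DESeq2 called 10 osteoblast genes, and 2 each of collagen folding, other collagens, mineralization, Wnt and IGF and FGF genes. It called 1 each of the leucine-rich proteoglycan, osteocyte, BMP and TGF-beta, ATF4 and metalloproteinase lists. Leaving out 1 batch gave 3 to 11 osteoblast genes, 1 to 4 mineralization regulators, 0 to 6 ATF4, 0 to 4 Wnt and 0 to 3 cartilage genes. It gave 0 to 2 collagen folding, other collagen, osteocyte and IGF and FGF genes. It gave 0 to 1 for collagen I processing, proteoglycans, lysyl oxidases, BMP and TGF-beta, glycolysis, interferon, metalloproteinases, adipocyte, macrophage, osteoclast and neural lists.

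Medians over lists moved beyond the spread of the batches as follows. Leaving out 1 batch gave 0.97 to 1.30 for osteoblast genes, 0.18 to 0.80 for mineralization regulators, 0.19 to 0.35 for collagen I processing, 0.04 to 0.24 for other collagens, -0.05 to 0.24 for Wnt, -0.14 to 0.04 for IGF and FGF, 0.18 to 0.72 for adipocyte and -0.13 to 0.08 for neural genes. With no replicate block, on 12 or on 24 libraries, Wnt was at 0.27 and IGF and FGF at 0.13. At a mean of at least 5 CPM Wnt was at -0.04 and endothelial markers at 0.05. Without batch 19 the signs of Runx2 (0.06) and Ddx3y (0.08) turned; leaving out 1 batch gave -0.18 to 0.06 and -0.94 to 0.08. The causes of these moves were not tested. Counted over genes and alternatives, 1054 other values of single genes kept their sign and their side of the threshold, and 98 kept their sign and passed it. Depth limits genes such as Bglap, Ibsp, Dlx3 and Sost, whose day 0 levels were under 1 CPM.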

Other observations

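Imprinted genes appeared among the lower values and were then looked at as a group of 30, chosen after Igf2, Zim1 and Zdbf2 had been seen there. Of the 28 tested, 19 had a fitted difference below 0 and 9 above, 11 were below 0 in 3 of 3 batches (17.6% of all genes) and 1 above, and 6 had an unadjusted p under 0.05 below 0 (4.07% of all genes), the genes that prompted the choice among them. The median was -0.23, beside 0.04 over all genes. Peg3, an imprinted zinc finger gene, stood at 185, 265 and 298 CPM in WT and 170, 136 and 150 in HBM on day 10. Its differences were -0.82, -1.09 and -0.50 (-0.80 ± 0.18, edgeR adjusted p = 0.532).

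Genes with small day 10 levels also had differences past 1 in every batch. The neuropeptide gene Gal was at 1.16, 4.88 and 0.129 CPM in WT and 13.3, 21.3 and 0.505 in HBM on day 10, from at most 0.115 CPM on day 0 (3.37 ± 0.76, edgeR adjusted p = 0.532). Serpinb2, an inhibitor of plasminogen activators, went from 2.13, 5.48 and 9.55 to 0.634, 0.0248 and 0.155 CPM in WT and from 1.01, 3.95 and 4.74 to 1.17, 0.147 and 0.481 CPM in HBM (2.29 ± 0.40, adjusted p = 0.358).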
